A study of Mus musculus with 12 samples.

Results

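Mitochondrial ribosomal protein genes encode the protein part of the ribosome inside mitochondria (the mitoribosome), and were taken here as those whose symbol in the deposited table is Mrpl or Mrps followed by a number and, in some, a letter a, b or c. The rule used names and no expression value. It found 78 genes of 27978 in the table, 49 named for the large subunit (Mrpl) and 29 for the small subunit (Mrps). All 78 had a mean of at least 1 FPKM (mapped fragments for each kilobase of a transcript, scaled to a library of 1000000), the level asked of a gene before it was tested, and 12559 genes of the table did. Names and assembled particles do not agree everywhere: in present structures the products of Mrps30 and Mrps18a sit in the large subunit, and that of Mrps36 is now assigned to the 2-oxoglutarate dehydrogenase complex of the citric acid cycle. Some mitoribosomal proteins carry other names and lie outside the rule, such as Dap3, Ptcd3, Gadd45gip1, Chchd1 and Aurkaip1.

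The mitoribosome is built from proteins that are encoded in the nucleus, made in the cytosol and imported, and from ribosomal RNA that is transcribed inside the organelle. It translates only the few messenger RNAs of the mitochondrial genome, all of which encode membrane subunits of the oxidative phosphorylation complexes, and neurons depend heavily on those complexes for ATP. Its large subunit holds the peptidyl transferase centre and the exit tunnel, and its small subunit binds the messenger RNA and decodes it.

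Total RNA from the hippocampus of mice was sequenced, with 12 libraries in 3 groups of 4. All groups received a fecal microbiota transplant (FMT). The group names in the sample labels are FMT-CON, FMT-DSS and FMT-SP, and the labels number the libraries 1 to 4, the series text calls the last group FMT-DSS+SP, and its title names the neuropeptide substance P. Neither says what CON and DSS stand for, how or when substance P was given, or the strain, sex and age of the mice and whether each library came from 1 animal. The p-values below therefore measure the spread between these libraries, which may be technical. Depth, estimated from the steps between low values, was 31.4 to 37.3 M mapped fragments (M, 1000000), although only 39.5% to 42.7% of those low values lay within 0.05 of a whole fragment. At that depth 10 FPKM in a transcript of 1 kb corresponds to 314 to 373 fragments.

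The libraries differed in ways the groups do not explain. The mitochondrially encoded genes took 15.9% to 29.0% of all FPKM, and the 3 libraries numbered 4 had the highest shares, 27.7%, 29.0% and 24.0%, in FMT-CON 4, FMT-DSS 4 and FMT-SP 4. Among 6 hippocampal markers were Prox1 of the dentate gyrus and Fibcd1 of CA1, and their sum was 118 to 179 FPKM in each library. Markers of neighbouring tissue were uneven: 6 choroid plexus genes summed to 30.4 to 3603 FPKM over the FMT-CON libraries, 1305 to 2924 in FMT-DSS and 18.1 to 3830 in FMT-SP, and 6 pituitary genes reached 3591 FPKM in FMT-CON 3 and at most 24.0 outside FMT-CON. In 2 FMT-DSS libraries, 2 and 4, the median of 6 microglia markers was 0.92 and 0.85 (log2) below the mean of the 12 libraries. In such bulk tissue, fewer cells of a type and less RNA per cell cannot be told apart.

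Promoter sequences are shown as a description of the genes, several of which start head to head with another gene, and no motif was related to the expression values. RefSeq promoter windows of GRCm38.p6 were found for 69 of the 78 genes, and the 250 bases before the start were searched on both strands for short motifs. A gene was counted if any of its windows held the motif. The ETS-family motif CCGGAAG, bound among others by GABPA (NRF2), was in 18 of the 69 genes, 26.1%. It was in 14.9% of the tested genes with a window and 7.83% of all 27025 genes with one. The palindrome GCGCATGCGC of nuclear respiratory factor 1 (NRF1) was in 3 genes, 4.35% against 1.86% and 0.877%, and the related 6 letters TGCGCA, which can overlap its ends, were in 18, 26.1% against 13.4% and 7.36%. The YY1 motif AAGATGGC was in 4 genes, 5.80% against 2.44%, and the CCAAT box was in 25, 36.2% against 40.4%. TATAAA was in 5 genes (7.25% against 7.64%), the E box CACGTG in 5 (7.25% against 10.1%) and the cAMP response element TGACGTCA in 2 (2.90% against 3.06%). The sequences below are the last 120 bases before the start, written 5′ to 3′ on the strand of the gene. They were chosen for the genes the results turn on, for 1 NRF1 match and for 1 pair of members that are transcribed away from each other. Capitals mark motif matches and lower case everything else. In Mrpl9 they mark TGCGCA joined with the NRF1 palindrome, in Mrpl34 the ETS motif, in Mrps36 and Mrps12 CCAAT boxes (reversed in Mrps36), and in Mrpl36 (with an E box) and Mrps11 the reversed YY1 motif. Mrpl12 and Mrpl46 hold none of the motifs in this stretch. A match describes letters and shows no binding.
Mrpl9: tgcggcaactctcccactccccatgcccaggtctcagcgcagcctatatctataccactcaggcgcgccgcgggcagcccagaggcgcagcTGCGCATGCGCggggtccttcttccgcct
Mrpl34: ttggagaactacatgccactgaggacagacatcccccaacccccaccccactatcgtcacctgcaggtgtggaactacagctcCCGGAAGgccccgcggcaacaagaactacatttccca
Mrpl12: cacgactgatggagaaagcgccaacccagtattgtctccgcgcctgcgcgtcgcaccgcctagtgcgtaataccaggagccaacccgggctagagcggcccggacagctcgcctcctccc
Mrpl36: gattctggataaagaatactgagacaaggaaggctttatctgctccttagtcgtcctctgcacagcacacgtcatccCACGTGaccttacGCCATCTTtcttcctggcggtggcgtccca
Mrps36: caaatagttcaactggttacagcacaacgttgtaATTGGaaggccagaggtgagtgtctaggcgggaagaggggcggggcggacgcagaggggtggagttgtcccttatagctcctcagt
Mrps12: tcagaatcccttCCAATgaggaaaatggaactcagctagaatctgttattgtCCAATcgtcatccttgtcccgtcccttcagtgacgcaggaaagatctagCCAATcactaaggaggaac
Mrpl46: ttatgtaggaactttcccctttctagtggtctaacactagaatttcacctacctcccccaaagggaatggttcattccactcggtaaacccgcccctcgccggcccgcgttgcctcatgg
Mrps11: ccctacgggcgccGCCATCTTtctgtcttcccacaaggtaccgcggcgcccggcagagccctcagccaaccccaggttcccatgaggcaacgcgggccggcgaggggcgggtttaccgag
In GRCm38.p6 these windows lie at chr3:94443216-94443335, plus strand (Mrpl9), chr8:71464806-71464925, plus strand (Mrpl34), chr11:120484517-120484636, plus strand (Mrpl12), chr13:73330889-73331008, plus strand (Mrpl36), chr13:100744660-100744779, minus strand (Mrps36) and chr7:28741822-28741941, minus strand (Mrps12). Those of the head-to-head pair lie at chr7:78783090-78783209, minus strand (Mrpl46) and chr7:78783011-78783130, plus strand (Mrps11), so they share their stretch nearest both starts, read on opposite strands.

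The members were expressed at moderate levels that spanned over an order of magnitude. Their mean FPKM over the 12 libraries ran from 1.97 (Mrpl14) to 86.3 (Mrps21), with a median of 18.9 against 7.93 for all tested genes. The median was 18.2 for the 49 large subunit genes and 19.9 for the 29 small subunit genes. A mean under 5 FPKM was found in 7 members, 53 lay from 5 to 30 and 18 at 30 or above.

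In the large subunit the highest levels were those of Mrpl12 (53.1 FPKM), Mrpl42 (49.3), Mrpl52 (46.3) and Mrpl20 (42.5). Mrpl12 is the L7/L12 stalk protein that helps recruit translation factors and has also been found to bind mitochondrial RNA polymerase. The stalk base protein gene Mrpl10 stood lower, at 27.8 FPKM, and Mrpl11, of the neighbouring factor-binding region, at 14.1. In bacteria and mitochondria alike the stalk holds several copies of L12 per ribosome. Mrpl45, whose product lies at the exit tunnel and helps hold the ribosome to the inner membrane, had 8.41 FPKM. Mrpl58 encodes a peptidyl-tRNA hydrolase (ICT1) that became a ribosomal component, and had 15.4 FPKM. Lowest were Mrpl14, Mrpl1, Mrpl15 and Mrpl17, and Mrpl14 had 1.98, 1.74, 2.30 and 2.79 FPKM in the FMT-CON libraries 1 to 4. The library ranges of Mrpl12 and Mrpl14 lie far apart, whereas those of Mrpl12 and Mrpl42 overlap in each group.

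In the small subunit Mrps21 stood apart at 86.3 FPKM, followed by Mrps34 (48.6), Mrps26 (48.2) and Mrps18c (47.4). The next 3 differ by less than their spread over libraries. Bacterial S18 has 3 mitochondrial paralogs from different genes, and their levels were unequal: 46.8 FPKM for Mrps18a, 9.71 for Mrps18b and 47.4 for Mrps18c. The highest library of Mrps18b had 12.6 FPKM and the lowest library of the others had 39.5. Mrps12, the small subunit decoding-centre protein, had 25.5 FPKM, and Mrps27, a pentatricopeptide repeat protein, 11.6. Lowest were Mrps35 (3.77 FPKM), Mrps10, Mrps25 and Mrps18b. Among the annotated transcripts of other genes, near-identical copies of 6 members were found (of Mrpl22, Mrpl23, Mrpl27, Mrpl42, Mrps10 and Mrps21). The reads of these 6 could have been split or shared, and their levels, that of Mrps21 included, are less certain. Copies outside the annotated transcripts were not searched for, so the other members may have some.

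**Figure D1:**
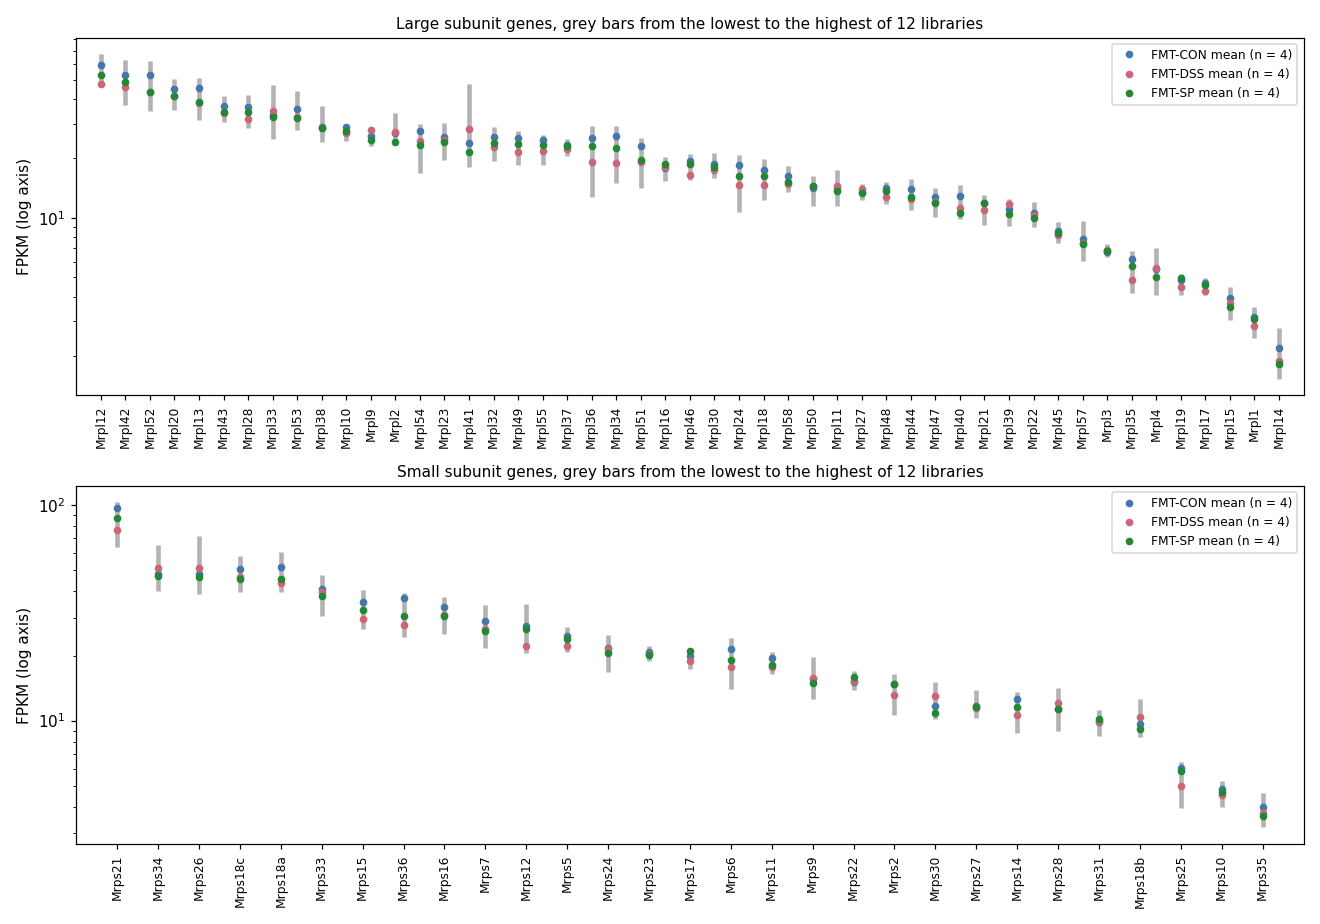
Mean FPKM of each gene (log axis) in FMT-CON, FMT-DSS and FMT-SP (coloured points, n = 4 libraries each), with a grey bar from the lowest to the highest of the 12 libraries. Large subunit genes run from 53.1 (Mrpl12) to 1.97 (Mrpl14) and small subunit genes from 86.3 (Mrps21) to 3.77 (Mrps35), and the group means of a gene lie close together beside the distance between genes.

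Variation between libraries was small. The coefficient of variation (SD divided by mean) over the 12 libraries had a median of 0.124 in the members, 0.163 over all tested genes and 0.155 over tested genes in the same range of levels. The highest library exceeded the lowest by a median of 1.48 times, from 1.16 to 2.63 times. Steadiest were Mrpl3, a protein near the peptidyl transferase centre, with a coefficient of 0.0403, and Mrps23 with 0.0439. Mrpl3 had 6.99, 6.68, 6.98 and 6.32 FPKM in FMT-CON libraries 1 to 4, 6.86, 6.95, 7.34 and 6.45 in FMT-DSS and 7.01, 6.67, 6.68 and 6.77 in FMT-SP. All 12 values lay between 6.32 and 7.34, and the groups overlapped.

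At the other end the coefficient was 0.327 in Mrpl41, 0.242 in Mrpl33 and 0.206 in Mrpl52 in the large subunit. In the small subunit it was 0.213 in Mrps26, 0.184 in Mrps6 and 0.164 in Mrps34. Mrpl41 had 22.8, 18.1, 27.0 and 27.9 FPKM in FMT-CON libraries 1 to 4, 18.5, 24.3, 21.7 and 47.5 in FMT-DSS and 21.3, 18.2, 20.5 and 26.4 in FMT-SP. Library FMT-DSS 4 alone lay above 28, and the other 11 libraries overlapped. Mrps26 had 39.0, 39.3, 55.0 and 57.1 FPKM in FMT-CON libraries 1 to 4, 38.6, 48.2, 45.0 and 71.6 in FMT-DSS and 45.8, 41.2, 40.0 and 58.1 in FMT-SP. Its 4 highest values were those of FMT-DSS 4, FMT-SP 4, FMT-CON 4 and FMT-CON 3, so 1 library or more of each group was high. Mrps6 had 19.7, 21.5, 23.5 and 20.8 FPKM in FMT-CON libraries 1 to 4, 16.7, 14.1, 23.8 and 16.0 in FMT-DSS and 14.8, 17.0, 20.5 and 24.1 in FMT-SP. Values near 14 to 17 and near 20 to 24 occurred in both FMT-DSS and FMT-SP.

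The members were high or low together from library to library, in both subunits. After each gene was centred on its mean over the 12 libraries, the median of the 78 members (log2) was 0.04, -0.06, 0.15 and 0.18 in FMT-CON 1 to 4, -0.14, -0.14, 0.02 and 0.09 in FMT-DSS, and -0.05, -0.15, -0.00 and 0.15 in FMT-SP. Each group thus held libraries above and libraries below 0. The group means of these medians were 0.08 ± 0.11 in FMT-CON, -0.04 ± 0.12 in FMT-DSS and -0.01 ± 0.13 in FMT-SP (SD, n = 4). The FMT-CON and FMT-DSS means lay about 1 SD apart, and the libraries of the 3 groups overlapped. In FMT-CON 3, 76 of the 78 members exceeded their own mean and in FMT-CON 4, 69 did, against 5 in FMT-DSS 1 and 9 in FMT-SP 2. Summed over members, FPKM ran from 1496 (FMT-SP 2) to 1953 (FMT-CON 4). As a share of all FPKM of a library it ran from 0.426% (FMT-DSS 2) to 0.494% (FMT-CON 3). The large subunit sum was 1.34 to 1.42 times the small subunit sum in each of the 12 libraries.

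**Figure D2:**
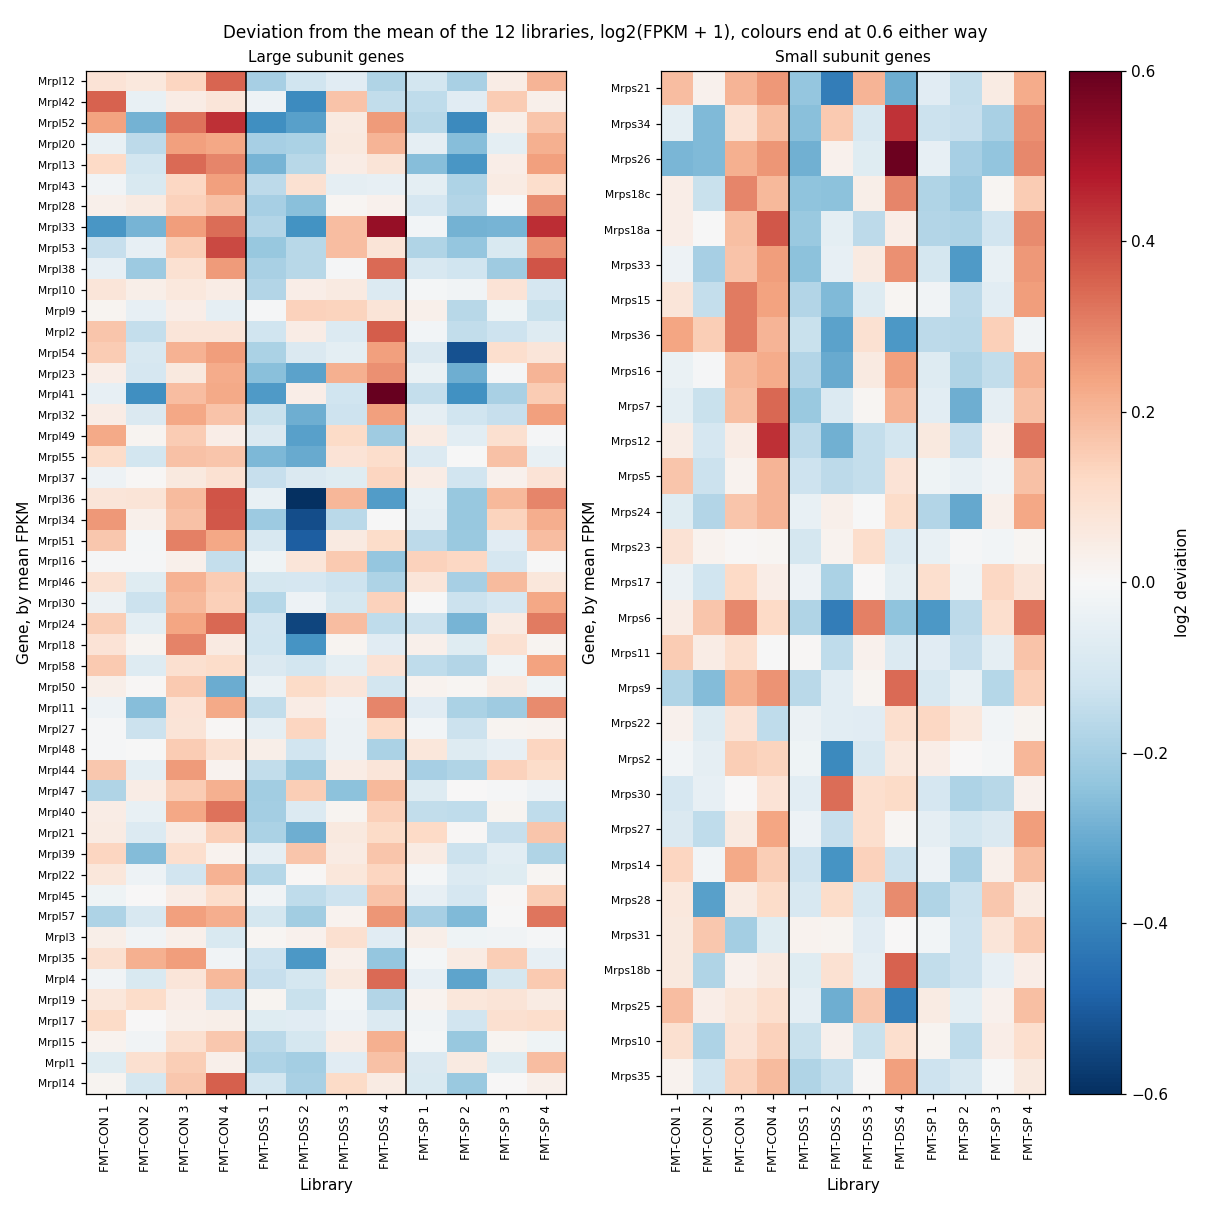
Deviation of each member (rows, ordered by mean FPKM) from its own mean in each library (columns), in log2(FPKM + 1), with colours ending at 0.6 either way. Columns FMT-CON 3, FMT-CON 4 and FMT-SP 4 are mostly red and FMT-DSS 1 and FMT-SP 2 mostly blue in both panels, and no group of 4 columns is of 1 colour.

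The pattern over libraries also went with replicate number. The library numbered 4 lay above the mean of the other 3 in each of the 3 groups in 45 of the 78 members, 57.7% against 27.3% of tested genes, and below it in 8, 10.3% against 42.6%. Those 8 were Mrpl3, Mrpl9, Mrpl10, Mrpl16, Mrpl19, Mrpl35, Mrpl49 and Mrpl50. The library numbered 2 was below the mean of the other 3 in each group in 52 members, 66.7% against 27.3%. In 20 members, 25.6% against 5.45% of tested genes, the 4 highest libraries were FMT-SP 4, FMT-DSS 4, FMT-CON 4 and FMT-CON 3. The 2 lowest were FMT-DSS 1 and FMT-SP 2 in 15 members, 19.2% against 2.93%, among them Mrpl12, Mrpl52 and Mrps18a. FMT-DSS 1 and FMT-DSS 2 were the 2 lowest in 9 members, 11.5% against 2.82%, and FMT-DSS 2 and FMT-SP 2 in 9, 11.5% against 3.27%. FMT-DSS 2 and FMT-DSS 4 were lowest in 8 members, 10.3%, a share close to the 10.7% of tested genes: Mrpl19, Mrpl35, Mrpl36, Mrpl48, Mrpl49, Mrps21, Mrps25 and Mrps36. The labels do not say what a number stands for.

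The 78 genes of cytosolic ribosomal proteins and the 83 tested nuclear genes of oxidative phosphorylation had a partly like order of libraries. In FMT-CON 3 the median deviation was 0.15 in the members, 0.20 in cytosolic ribosomal protein genes and 0.16 in oxidative phosphorylation genes, and in FMT-SP 2 it was -0.15, -0.23 and -0.20. The lists parted in FMT-CON 1, with 0.04 in the members, -0.05 in cytosolic ribosomal protein genes and 0.06 in oxidative phosphorylation genes. In FMT-DSS 2 the medians were -0.14, -0.06 and -0.16. Over all tested genes the medians stayed between -0.09 and 0.06. The mitochondrially encoded messenger RNAs, which are what the mitoribosome translates, had medians of 0.64, 0.66 and 0.32 in the libraries numbered 4 of FMT-CON, FMT-DSS and FMT-SP, and -0.46, -0.26 and -0.40 in those numbered 2.

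**Figure D3:**
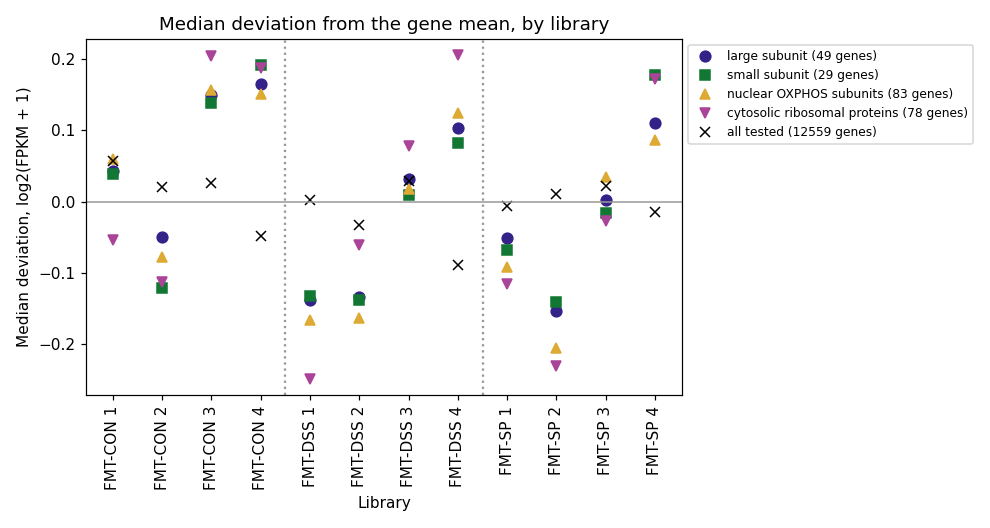
Median deviation from the gene mean, log2(FPKM + 1), in each library (x axis) for large subunit genes, small subunit genes, nuclear oxidative phosphorylation genes, cytosolic ribosomal protein genes and all tested genes. The circles and squares of the 2 subunits move together, from -0.15 (large subunit, FMT-SP 2) to 0.19 (small subunit, FMT-CON 4), while the crosses of all tested genes stay between -0.09 and 0.06.

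Members have short annotated transcripts, and length was checked beside the pattern. The length of a gene is the median over its annotated coding transcripts, which need not be those expressed here. Their median transcript length was 1052 bases against 2184 for tested genes, and 36 of the 78 (46.2%) were under 1000 bases against 19.0%. Among the 18 members of 2000 bases and over, the median deviation was 0.12 in FMT-CON 4, 0.11 in FMT-DSS 4 and 0.18 in FMT-SP 4. Among the 6622 tested genes of that length it was -0.13, -0.18 and -0.07 in the same libraries. From 1000 to 2000 bases it was 0.14, 0.02 and 0.11 in the 24 members and 0.03, -0.02 and 0.04 in tested genes. Among genes under 1000 bases both sets were above 0 there: 0.21, 0.11 and 0.17 in the 36 members and 0.08, 0.05 and 0.07 in tested genes.

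The comparison of FMT-DSS with FMT-CON asks what differs with the transplant named DSS. Most members had lower means in FMT-DSS, by small amounts that none of the tests called. Mean log2(FPKM + 1) was lower in 59 of the 78 members (75.6%, against 59.7% of tested genes), 38 of 49 in the large subunit and 21 of 29 in the small, and the median change was -0.11 (-0.11 large, -0.07 small, -0.03 over all tested genes). Cytosolic ribosomal protein genes were lower in 66 of 78 (84.6%) and nuclear oxidative phosphorylation genes in 71 of 83 (85.5%) in the same comparison. After Benjamini-Hochberg adjustment over all 12559 genes in limma, no member passed 0.05 and neither did any other gene (0% called), and the smallest adjusted p of a member was 0.966. At an unadjusted p under 0.05, 10 members were lower and 0 higher, where 2.81% of tested genes were lower and 1.25% higher. In 7 members all FMT-DSS libraries lay below all FMT-CON libraries and in 0 above, where 1.23% of tested genes were lower and 0.518% higher in that sense. The 10 were Mrps36, Mrpl34, Mrpl12, Mrpl35, Mrps21, Mrpl18, Mrpl49, Mrpl46, Mrpl36 and Mrps12, and the 7 were Mrps36, Mrpl34, Mrpl12, Mrpl46, Mrps12, Mrpl28 and Mrpl17. Since members move together, these counts are not independent. Without FMT-DSS 2 the count of 10 was 5, without FMT-CON 3 it was also 5 and without FMT-CON 2 it was 18. Without FMT-DSS 2 and the 3 libraries numbered 4, an alternative chosen after seeing the data, it was 4. The shares of all tested genes in these reduced fits are not given here. Marker lists of other cells and tissues also had means to 1 side. All 6 microglia markers were lower in FMT-DSS (median -0.57, with summed levels of 45.1 to 63.9 FPKM in FMT-CON and 21.3 to 58.9 in FMT-DSS). All 5 thalamus markers (-0.42, sums of 16.3 to 160 and 15.7 to 29.8 FPKM) and all 5 tested pituitary markers (-1.58) were also lower. All 5 erythrocyte markers (1.07, sums of 138 to 389 and 218 to 717 FPKM) and all 6 choroid plexus markers (0.52) were higher. Their part in the members' values was not tested.

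Mrps36, the subunit that links E3 to the 2-oxoglutarate dehydrogenase complex, had 37.2, 34.9, 39.1 and 36.2 FPKM in FMT-CON libraries 1 to 4, 28.5, 24.9, 33.5 and 24.5 in FMT-DSS and 28.0, 28.0, 34.8 and 30.9 in FMT-SP. The FMT-CON libraries lay above those of both other groups. Means were 36.9 ± 1.798 FPKM in FMT-CON, 27.9 ± 4.18 in FMT-DSS and 30.4 ± 3.22 in FMT-SP (SD, n = 4), and the log2 change from FMT-CON to FMT-DSS was -0.40 (SE 0.11; limma, unadjusted p = 0.00268). Its promoter holds a CCAAT box on the opposite strand, printed above.

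Mrpl34, a small protein of the large subunit, had 26.8, 22.7, 25.3 and 29.1 FPKM in FMT-CON libraries 1 to 4, 19.0, 15.0, 19.8 and 22.1 in FMT-DSS and 21.4, 18.8, 24.4 and 26.0 in FMT-SP. FMT-DSS lay wholly below FMT-CON, with FMT-SP across both. The log2 change from FMT-CON to FMT-DSS was -0.44 (SE 0.13; limma, unadjusted p = 0.00520), the largest decrease among the members.

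The stalk gene Mrpl12 had 55.9, 55.1, 57.7 and 67.4 FPKM in FMT-CON libraries 1 to 4, 45.8, 48.4, 50.3 and 46.4 in FMT-DSS and 48.8, 46.0, 54.4 and 60.9 in FMT-SP. The 4 FMT-DSS libraries were within 5 FPKM of each other and all lay below FMT-CON, while FMT-SP reached from the FMT-DSS range into that of FMT-CON. The log2 change between FMT-DSS and FMT-CON was -0.30 (SE 0.10; limma, unadjusted p = 0.0101). In the stalk base gene Mrpl10 it was -0.09 (SE 0.08; limma, unadjusted p = 0.234) and in Mrpl11 0.03 (SE 0.14; limma, unadjusted p = 0.810), and the groups of both overlapped.

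Mrps12 of the decoding centre had 26.0, 23.5, 26.0 and 34.6 FPKM in FMT-CON libraries 1 to 4, 22.6, 20.5, 22.8 and 23.3 in FMT-DSS and 26.3, 22.8, 25.7 and 31.8 in FMT-SP. Library 4 was highest in each group, and FMT-DSS lay below FMT-CON by a margin of 0.15 FPKM at its closest. The log2 change was -0.28 (SE 0.12; limma, unadjusted p = 0.0421). Sars2, the mitochondrial seryl-tRNA synthetase gene that starts head to head with Mrps12, had a log2 change of 0.10 in the limma fit (unadjusted p = 0.620).

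Mrpl46 had 19.3, 17.2, 21.1 and 20.2 FPKM in FMT-CON libraries 1 to 4, 16.7, 16.8, 16.6 and 15.8 in FMT-DSS and 19.1, 15.6, 20.8 and 19.0 in FMT-SP. FMT-DSS was narrow and below FMT-CON, and the log2 change was -0.22 (SE 0.10; limma, unadjusted p = 0.0362). Its head-to-head partner Mrps11, with which it shares the promoter stretch printed above and, in the annotation, exon sequence on opposite strands, had 20.5, 19.0, 19.8 and 18.4 FPKM in FMT-CON libraries 1 to 4, 18.5, 16.5, 18.7 and 17.3 in FMT-DSS and 17.5, 16.6, 17.7 and 20.8 in FMT-SP. The groups of Mrps11 overlapped, and the log2 change was -0.12 (SE 0.09; limma, unadjusted p = 0.169). Strand use in the counting is not given in the sources used here, so reads from the overlap of these 2 genes cannot be assigned with certainty.

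Mrps21, the most abundant member, had 97.2, 87.0, 98.4 and 103 FPKM in FMT-CON libraries 1 to 4, 72.5, 63.9, 98.4 and 69.5 in FMT-DSS and 81.3, 77.3, 88.3 and 99.8 in FMT-SP. FMT-DSS 1, 2 and 4 lay below all FMT-CON libraries and FMT-DSS 3 lay among them. The log2 change was -0.35 (SE 0.13; limma, unadjusted p = 0.0165). Mrpl35 had 5.98, 6.59, 6.78 and 5.44 FPKM in FMT-CON libraries 1 to 4, 5.001, 4.16, 5.68 and 4.56 in FMT-DSS and 5.48, 5.76, 6.25 and 5.31 in FMT-SP, with FMT-DSS 3 again inside the FMT-CON range and a log2 change of -0.30 (SE 0.11; limma, unadjusted p = 0.0137). Mrpl36, the counterpart of a very small bacterial protein, had 23.3, 23.3, 25.3 and 29.0 FPKM in FMT-CON libraries 1 to 4, 21.4, 12.7, 25.5 and 17.3 in FMT-DSS and 21.3, 18.7, 25.4 and 27.2 in FMT-SP. FMT-DSS 2 and FMT-DSS 4 were its 2 lowest libraries and FMT-DSS 3 lay at the FMT-CON level, and the log2 change was -0.41 (SE 0.18; limma, unadjusted p = 0.0418). Ndufs6, a complex I gene that starts head to head with Mrpl36, had a log2 change of -0.14 in the limma fit (unadjusted p = 0.291). In Mrpl18 and Mrpl49 the log2 changes were -0.24 (SE 0.10) and -0.24 (SE 0.10), with overlapping groups, and Fau, which starts head to head with Mrpl49, had -0.02.

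**Figure D4:**
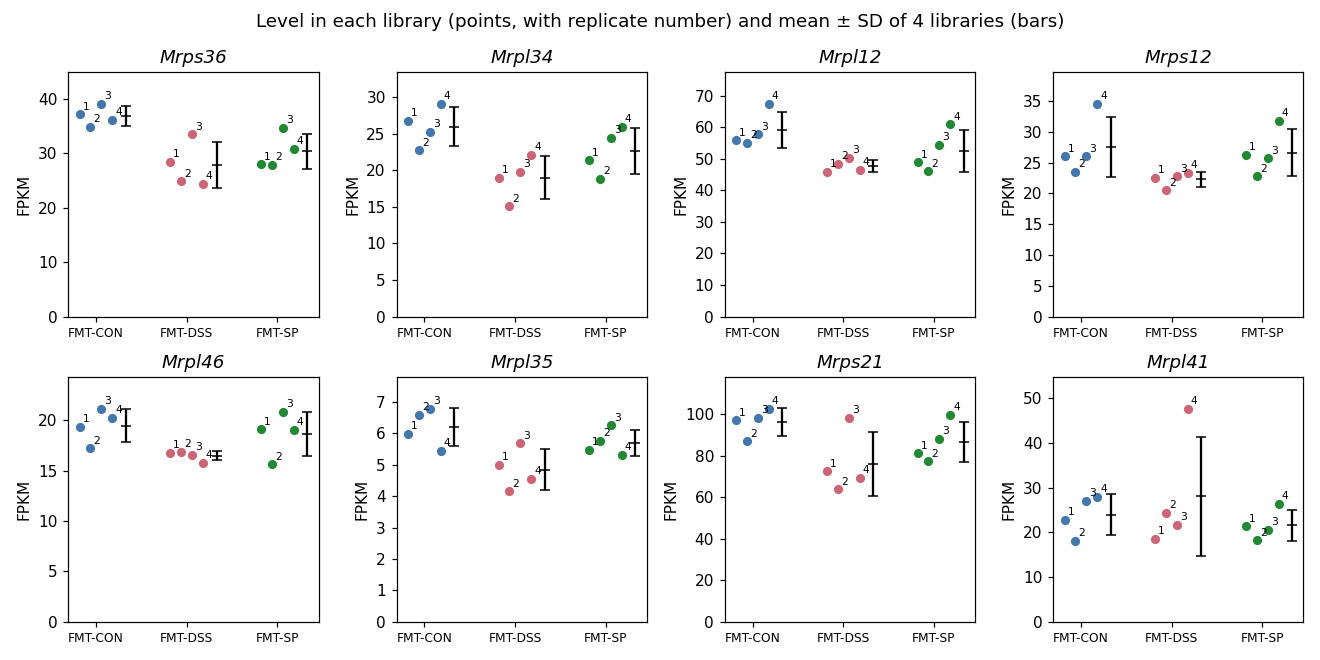
FPKM in each library (points with replicate number, axes from 0) and mean ± SD of 4 libraries (bars) for 8 members. In Mrps36, Mrpl34, Mrpl12, Mrps12 and Mrpl46 the FMT-DSS points lie below all FMT-CON points, in Mrpl35 and Mrps21 they overlap through FMT-DSS 3, and in Mrpl41 a single point, FMT-DSS 4 at 47.5, sets the FMT-DSS mean.

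Of the members, 19 had a higher mean in FMT-DSS. The largest log2 changes upward were those of Mrpl41 (0.14, SE 0.24), Mrps30 (0.14, SE 0.10) and Mrpl9 (0.10, SE 0.07). Of the 3 S18 paralogs, Mrps18a and Mrps18c had lower means (-0.25 and -0.14) and Mrps18b a higher one (0.09), with overlapping groups in all 3. The 95% interval of the change lay within 1.5-fold either way in 70 of 78 members, against 77.2% of tested genes, and within 1.2-fold in 13.

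**Figure D5:**
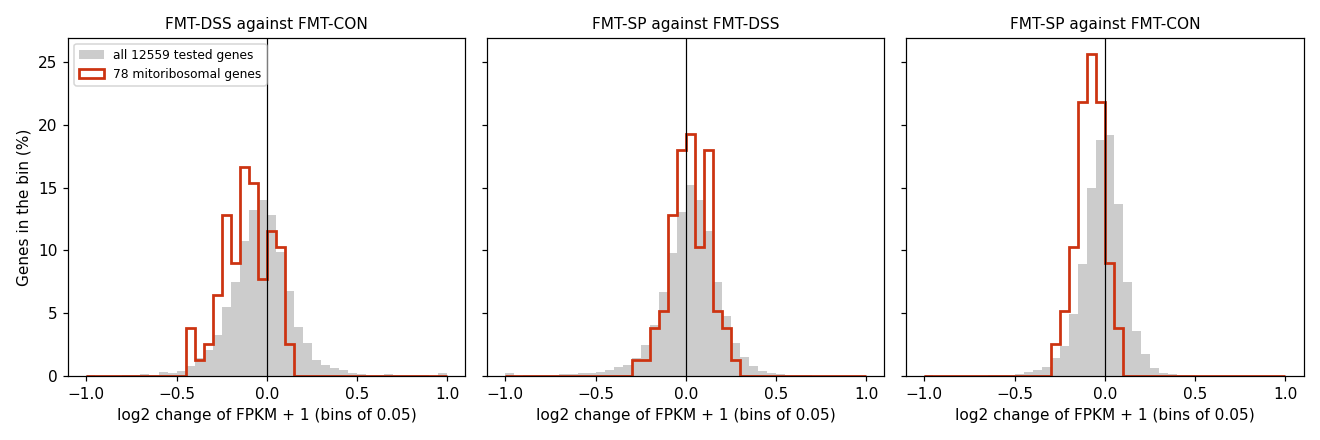
Distribution of the log2 change of FPKM + 1 (x axis, bins of 0.05) over the 78 members (red outline) and all 12559 tested genes (grey), as a percentage of each set, in the 3 comparisons. The members' outline is shifted to the left of the grey in both comparisons with FMT-CON (medians -0.11 and -0.09, against -0.03 and -0.01) and lies over it in FMT-SP against FMT-DSS (0.02 against 0.03).

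The comparison of FMT-SP with FMT-DSS asks what differs where substance P was added. Directions were mixed: 45 members were higher in FMT-SP and 33 lower (42.3% lower, against 41.1% of tested genes). The median was 0.02 against 0.03 over all tested genes. With libraries rescaled by median ratios the split was 37 higher and 41 lower and the median -0.01. In limma no member passed 0.05 after adjustment (0% called, smallest adjusted p 0.999). At an unadjusted p under 0.05, 2 members were lower and 0 higher, where 1.23% of tested genes were lower and 1.27% higher. In 1 member, Mrpl19, all FMT-SP libraries exceeded all FMT-DSS libraries and in 0 they lay below, where 0.565% of tested genes were higher and 0.709% lower. The 2 members were lost without FMT-DSS 2 and without FMT-SP 3, and 6 members were under 0.05 without FMT-DSS 3. The shares of all tested genes in these fits are not given here. Marker lists with means to 1 side occurred here too. All 6 microglia markers (median 0.51) and all 6 neuron markers (0.13) were higher in FMT-SP. All 6 oligodendrocyte (-0.12), 6 choroid plexus (-0.53), 6 striatum (-0.81) and 5 erythrocyte markers (-0.57) were lower. The other marker lists were mixed. Their part in the members' values was not tested.

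Mrps30, which sits in the large subunit in structures, had 10.9, 11.3, 11.8 and 12.5 FPKM in FMT-CON libraries 1 to 4, 11.2, 15.1, 12.7 and 12.8 in FMT-DSS and 10.9, 10.2, 10.4 and 11.98 in FMT-SP. FMT-DSS 2 was its highest library, and the log2 change from FMT-DSS to FMT-SP was -0.23 (SE 0.10; limma, unadjusted p = 0.0342). Mrpl9, whose promoter holds the NRF1 palindrome, had 26.4, 25.2, 26.9 and 25.2 FPKM in FMT-CON libraries 1 to 4, 26.0, 28.8, 28.8 and 27.7 in FMT-DSS and 26.7, 23.2, 25.6 and 23.7 in FMT-SP. The FMT-SP range ran from below to inside that of FMT-DSS, with a log2 change of -0.16 (SE 0.07; limma, unadjusted p = 0.0477). Mrpl19 of the large subunit had 5.03, 5.21, 4.92 and 4.28 FPKM in FMT-CON libraries 1 to 4, 4.82, 4.24, 4.68 and 4.09 in FMT-DSS and 4.84, 5.02, 5.06 and 4.94 in FMT-SP. Its FMT-SP libraries were all above its FMT-DSS libraries by 0.02 FPKM or more, and the log2 change was 0.13 (SE 0.09; limma, unadjusted p = 0.162).

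The members that were lower in FMT-DSS than in FMT-CON can be read in the other contrasts, which share those FMT-DSS or FMT-CON libraries and are not independent of the first. From FMT-DSS to FMT-SP the log2 changes were 0.13 in Mrps36, 0.25 in Mrpl34, 0.13 in Mrpl12, 0.24 in Mrps12 and 0.16 in Mrpl46. From FMT-CON to FMT-SP they were -0.27, -0.19, -0.17, -0.04 and -0.06 in the same genes. The 95% interval of the FMT-SP minus FMT-DSS change lay within 1.5-fold in 76 of 78 members, against 77.5% of tested genes.

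In FMT-SP against FMT-CON, 68 members had lower means and 10 higher (87.2% lower, against 53.3% of tested genes), 44 of 49 in the large subunit and 24 of 29 in the small. The median change was -0.09 (-0.09 large, -0.06 small), against -0.01 over all tested genes. In limma no member passed 0.05 after adjustment (0% called), and the smallest adjusted p was 0.999995. At an unadjusted p under 0.05, 2 members were lower and 0 higher, where 0.295% of tested genes were lower and 0.0637% higher. In 1 member, Mrps36, the FMT-SP libraries lay wholly below FMT-CON and in 0 above, where 0.303% of tested genes were lower and 0.191% higher. Without FMT-CON 3, FMT-SP 1 or FMT-SP 2 the 2 members were lost, without FMT-CON 4 there was 1, and without FMT-CON 2 or FMT-SP 4 there were 4 and 5. With limma array weights 25 members were under 0.05, all lower. Shares of all tested genes in these other fits are not given here, so their counts are not read as particular to the members. Cytosolic ribosomal protein genes were lower in 73 of 78 and oxidative phosphorylation genes in 77 of 83 in the same comparison. All 6 oligodendrocyte markers also had lower means (median -0.33, with summed levels of 1266 to 2495 FPKM in FMT-CON and 1026 to 1933 in FMT-SP). So did all 6 striatum markers (-0.54, sums of 53.4 to 147 and 46.0 to 103 FPKM), all 5 thalamus markers (-0.57) and all 5 tested pituitary markers (-1.56), while all 5 erythrocyte markers were higher (0.46). Their part was not tested.

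In Mrps36 the log2 change from FMT-CON to FMT-SP was -0.27 (SE 0.11; limma, unadjusted p = 0.0250). Mrpl40 had 11.9, 11.1, 13.7 and 14.7 FPKM in FMT-CON libraries 1 to 4, 9.85, 10.8, 11.6 and 12.8 in FMT-DSS and 10.3, 10.2, 11.6 and 10.2 in FMT-SP. FMT-SP 3 reached the FMT-CON range, the other FMT-SP libraries did not, and the log2 change was -0.25 (SE 0.11; limma, unadjusted p = 0.0359). Hira, a histone chaperone gene that starts head to head with Mrpl40, had a log2 change of 0.21 from FMT-CON to FMT-DSS in the limma fit (unadjusted p = 0.0416), where that of Mrpl40 was -0.17. From FMT-CON to FMT-SP the log2 change was -0.24 in Mrpl13 and -0.20 in Mrps18a, with overlapping groups. The 95% interval lay within 1.5-fold in 76 of 78 members, against 83.4% of tested genes.

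Head-to-head starts were frequent among the members. A protein-coding gene on the opposite strand started within 1000 bases upstream to 200 bases downstream of the start in 23 of 78 (29.5%), against 11.8% of tested genes. The pair Mrpl46 and Mrps11 is not among the 23, because their annotated transcripts overlap by more than that window allows. Partners included Psma2 of the proteasome (Mrpl32), Fau of the cytosolic ribosome (Mrpl49), Ndufs6 of complex I (Mrpl36) and Sars2 (Mrps12). Of the 23 partners 19 were tested. From FMT-CON to FMT-DSS 12 of the 19 had lower means, with a median change of -0.05, and 14 of their 19 members did. Over all tested genes 59.7% had lower means, with a median change of -0.03. At an unadjusted p under 0.05 in limma were 4 of the 19 partners, against 510 of 12559 tested genes. Of these, Mitd1 (-0.25) and Ppp1r10 (-0.28) were lower in FMT-DSS, and Hira (0.21) and Zfp189 (0.39) higher. From FMT-DSS to FMT-SP it was 1 partner, Ppp1r10 (0.30), against 314 tested genes, and from FMT-CON to FMT-SP 0, against 45. Exon overlap with a gene on the opposite strand was annotated for 28 members and with another gene on the same strand for 8, so part of their signal may belong to the overlapping gene. The 78 genes lay on 17 chromosomes, with 11 on chromosome 11 and 8 on chromosome 17.

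Other genes of mitochondrial protein synthesis were compared in the same fit. Among the 5 mitoribosomal proteins with other names, 4 had lower means in FMT-DSS than in FMT-CON (80%, against 59.7% of tested genes). In FMT-SP 3 had higher means than in FMT-DSS (40% lower, against 41.1%). All 5 had lower means in FMT-SP than in FMT-CON (100%, against 53.3%). Chchd1 had means of 43.4 FPKM in FMT-CON, 36.7 in FMT-DSS and 37.0 in FMT-SP, with a change to FMT-DSS of -0.24 (SE 0.11; limma, unadjusted p = 0.0455). Of 23 tested mitoribosome assembly genes 15 were lower in FMT-DSS than in FMT-CON (65.2%, near the 59.7% of all tested genes). At an unadjusted p under 0.05, 2 were lower (8.70%, against 2.81% of tested genes) and 0 higher. From FMT-DSS to FMT-SP 2 were higher and 0 lower at that level, against 1.27% and 1.23% of tested genes. Mrm1, a methyltransferase of the large ribosomal RNA, had 4.18 FPKM in FMT-CON, 3.08 in FMT-DSS and 3.96 in FMT-SP, with changes of -0.35 (SE 0.13) to FMT-DSS and 0.29 (SE 0.13) from there to FMT-SP. Fastkd2, an RNA-binding protein of the mitochondrial RNA granule, had 5.90, 4.54 and 5.90 FPKM, with changes of -0.35 and 0.35 (SE 0.16 each). The groups of Fastkd2 overlapped in both comparisons, with an SD of 1.42 FPKM in FMT-DSS. Both changes of a gene rest on the same FMT-DSS libraries and are not independent. None of these passed adjustment.

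Of 17 genes of translation factors and helpers, 13 were lower in FMT-DSS than in FMT-CON (76.5%, against 59.7% of tested genes). In FMT-SP 13 were higher than in FMT-DSS (23.5% lower, against 41.1% of tested genes). Pdf, the peptide deformylase that trims new mitochondrial proteins, had 19.1, 15.7 and 17.8 FPKM in FMT-CON, FMT-DSS and FMT-SP. Tufm, the mitochondrial elongation factor Tu, had a change of -0.33 (SE 0.16) from FMT-CON to FMT-DSS. Of 16 tested mitochondrial tRNA synthetase genes 9 were lower in FMT-DSS than in FMT-CON (56.2%, near the share of all tested genes). In FMT-SP 12 of them were higher than in FMT-DSS (25% lower, against 41.1% of tested genes). Lower in FMT-SP than in FMT-CON were 6 (37.5%, against 53.3% of tested genes). Of 9 tested genes of mitochondrial DNA transcription and maintenance 7 were lower in FMT-DSS than in FMT-CON (77.8%, against 59.7% of tested genes). Of these 9 genes, 0 had an unadjusted p under 0.05 in any of the 3 comparisons. Among 9 tested regulators of mitochondrial biogenesis, Gabpa, which encodes an ETS factor, had 5.54, 3.97 and 5.55 FPKM. Its changes were -0.41 to FMT-DSS and 0.41 from there to FMT-SP (SE 0.14 each; limma, unadjusted p = 0.0149 and 0.0150), and neither passed adjustment. The groups of Gabpa overlapped in both comparisons, which share the FMT-DSS libraries. Myc, another regulator, had 1.57, 2.19 and 1.85 FPKM, with a change of 0.31 to FMT-DSS (SE 0.10; limma, unadjusted p = 0.00892), opposite in direction to Gabpa and also not past adjustment.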

How the data were processed

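The deposited table holds 1 FPKM value per gene and library, computed by the authors. HISAT2 2.0 and the build mm8 are named in the submitters' processing notes without their roles. No counter, annotation, strand setting or filter is given in the sources used here. No 2 of the 12 libraries were identical.

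Values were tested as log2(FPKM + 1), where the gene's mean reached 1 FPKM, in 1 limma 3.58.1 model (R 4.3.3) over all 12 libraries with a mean-variance trend. Tests are two-sided, with Benjamini-Hochberg adjustment over all 12559 tested genes and a threshold of 0.05. Changes are in log2(FPKM + 1), which understates those of low genes, and intervals are 95%. The script was tested on simulated data. Low FPKM values of genes with a single transcript in GENCODE M21 (GRCm38) gave the depth. That annotation gave lengths, partners and overlaps by symbol for all 78 members and 12120 tested genes. Near-identical copies were sought among its transcripts with blastn 2.17.0 (95% identity over at least 50% of a member's longest coding transcript). Promoters are RefSeq's, GRCm38.p6, not the build the submitters name.

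Members and lists were chosen with earlier results of these data known, and the cytosolic ribosomal protein and oxidative phosphorylation lists, by symbol, after seeing the data. Members were named if past the threshold, among the 5 smallest p of a subunit in a comparison, among the 4 highest or lowest means or 3 most variable of a subunit, or on a list of genes with known roles. Others named were picked after their values were seen. Of other lists, genes past the threshold or with the smallest p were named, except for a result that is not reported here. Alternatives were other pseudocounts, filters, scalings, library weights, a replicate block, and fits without libraries.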

Additional observations from a re-analysis of the deposited data

Results flagged for a closer look

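In groups of 4 libraries, a gap between 1 library and the rest that was wide for the group's range singled out 10 of the 246 groups examined (4.07%), where chance alone gives about 1 in 20. Library FMT-SP 4 was the high one in 5 of them: Mrpl38 with 36.9 FPKM, Mrps18a with 56.7, Mrps27 with 13.9, Mrps34 with 58.4 and Mrps5 with 26.6. In Mrps5 FMT-DSS 4 was also high, at 24.9 FPKM. Mrpl40 was high in FMT-SP 3 with 11.6 FPKM, and Mrps23 in FMT-CON 1 with 21.7 FPKM. Low libraries were FMT-CON 2 in Mrps18b, at 8.41 FPKM, and in Mrps28, at 8.97 FPKM. Of the 10, 6 lie in libraries numbered 4, which had the largest shares of mitochondrially encoded FPKM (24.0% to 29.0%), and the part of that share in these values was not tested.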

How the results depend on the processing

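No member passed the adjusted threshold in any comparison under the 25 alternatives run, and the smallest adjusted p of any member was 0.348. The median change of members stayed negative against FMT-CON under each of them. Leaving out 1 library at a time gave -0.16 to -0.06 for FMT-DSS against FMT-CON and -0.14 to -0.05 for FMT-SP against FMT-CON. For FMT-SP against FMT-DSS it gave -0.03 to 0.07, and the sign turned without FMT-DSS 1, FMT-DSS 2 or FMT-SP 4, with array weights (-0.02), with median ratios (-0.01) and in the alternative chosen after seeing the data (-0.01). Moving Mrps18a and Mrps30 to the large subunit and leaving Mrps36 out left the FMT-DSS against FMT-CON medians at -0.11 and -0.07. The counts at an unadjusted p under 0.05 moved more. They are given without the shares of all tested genes in the same fits, so they are not read as particular to the members. For FMT-DSS against FMT-CON the 10 became 6 with median ratios, 14 with array weights, 14 without FMT-DSS 3 and 5 without FMT-DSS 2 and FMT-DSS 4, and 1 left-out library gave 5 to 18. For FMT-SP against FMT-CON the 2 became 25 with array weights, 3 without the libraries numbered 4 and 4 in the alternative chosen after seeing the data, and 1 left-out library gave 0 to 5. For FMT-SP against FMT-DSS the 2 became 0 with only the 2 groups fitted, and 1 left-out library gave 0 to 6. For 2 members the change of FMT-SP against FMT-DSS reversed: Mrpl36 (0.29) to -0.023 without FMT-DSS 2 and FMT-DSS 4 and to -0.103 without FMT-DSS 2 and the libraries numbered 4, and Mrps25 (0.20) to -0.00402 and -0.048 in the same fits. FMT-DSS 2 and FMT-DSS 4 are the 2 lowest libraries of both genes.

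The replicate numbers did not pair the libraries by the rule used: 9 of 12 same-numbered pairs correlated above 0.1 over all tested genes (-0.45 to 0.84, and 0.69 to 0.84 among those numbered 4), and 5 libraries correlated best with their own number in both other groups. With the replicate block 0 members passed adjustment, and the counts at an unadjusted p under 0.05 were 19 (all lower) for FMT-DSS against FMT-CON, 7 (2 lower) for FMT-SP against FMT-DSS and 9 (all lower) for FMT-SP against FMT-CON, with medians of -0.11, 0.02 and -0.09. Shares of all tested genes with the block are not given here, so these counts are not read as particular to the members. Depth limits the members that are both low and short most, since a value rests on level times length.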
